A study of Homo sapiens with 6 samples.

Results

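Genes of MHC class I antigen presentation and its interferon control, 8 in all, were followed in MOLM-13 cells treated with C646. They are HLA-B, HLA-C and HLA-E (class I heavy chains), B2M (the class I light chain), TAP1 and TAP2 (the peptide transporter), TAPBP (tapasin, which bridges the transporter and the class I molecule) and IRF1 (an interferon-responsive transcription factor). The members were chosen by name, as all rows whose Entrez identifier maps to these 8 symbols, out of 25420 genes in the tables, with rows on alternative versions of a chromosome included and the counts of a gene's rows summed. MOLM-13 is an established human acute myeloid leukaemia line that carries an MLL-AF9 fusion. Cells of the DMSO control group received the vehicle. Cells of the C646 group received 10 µM C646, an inhibitor of the histone acetyltransferases CBP and p300, for 2 h. For the last 1 h both groups were also given 100 µM 4-thiouridine (4sU), so that all cells carry the label. RNA was taken at 2 h from 3 replicates per group. After alkylation, a 4sU base in RNA is sequenced as C where the genome has T, and a read with such a conversion (T > C read) stands for a newly synthesized transcript. The comparison addresses which transcripts are made at a different rate shortly after CBP/p300 inhibition. The sources do not say whether the replicates are separate cultures, so p-values measure the spread between these samples, which may be technical.

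Class I molecules carry peptides cut by the proteasome to the cell surface, where cytotoxic T cells read them. The peptides are pumped into the endoplasmic reticulum by TAP1 and TAP2 and loaded, with the help of tapasin, onto a heavy chain that has paired with β2-microglobulin. Interferons raise the expression of nearly all of these genes through STAT factors and IRF1, and NLRC5 together with the RFX complex acts on the promoters of class I genes. IRF1 mRNA is short-lived and is made anew within minutes of a signal, while class I mRNAs are stable.

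The promoter stretches printed next show the letters by which these genes are usually tied to interferon, STAT and NF-κB signalling. They are from RefSeq (build GRCh38.p14), 5′ to 3′ on the strand of the gene (plus for B2M, minus for the others), and the capitals mark the matched motif. Of the 8 members, 7 had a promoter in the RefSeq table of 250 bases before to 50 bases after each start, and HLA-E had none. TAP1 had 2 promoters there, so that the members had 8 promoters in all.
IRF1, STAT element, chr5:132490880-132490906: cagcctgatTTCCCCGAAatgacggca
IRF1, NF-κB site, chr5:132490805-132490832: gccagggctGGGGAATCCCgctaagtgt
HLA-C, NF-κB site, chr6:31272246-31272273: gccgcgttgGGGATTCTCCactcccctg
HLA-B, NF-κB site, chr6:31357338-31357364: gcagcgttGGGGATTCCCCactcccct
B2M, interferon-stimulated response element, chr15:44711367-44711394: ctctaaGAAAAGGAAACTGAAAacggga
TAP1, interferon-stimulated response element, chr6:32853817-32853844: ggccgcTTTCGATTTCGCTTTCccctaa
TAP2, interferon-stimulated response element, chr6:32838779-32838806: tggggaagcGAAAGCGAAAgctgcccga
TAPBP, interferon-stimulated response element, chr6:33314077-33314104: ttggagGAAAGTGAAAGTGAAAggagga

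The core of the interferon-stimulated response element, searched as GAAANNGAAA on both strands, was matched in 4 of the 8 member promoters (B2M, TAP2, TAPBP and 1 of TAP1) and in 3.57% of all 35116 promoters of the table. In B2M, TAP1 and TAPBP, 2 overlapping matches run together in the stretch printed. The STAT element, searched as TTCNNNGAA, was matched in 2 of the 8 (IRF1 and the other of TAP1) and in 7.66% of all promoters. The NF-κB site was matched in 6 of the 8 (B2M, HLA-B, HLA-C, IRF1, TAPBP and 1 of TAP1) and in 11.3% of all promoters. The X2 box core TGACG was matched in 5 of the 8 and in 24.6% of promoters, and the Y box CCAAT in 5 of the 8 and in 34.6%. A match is a description of the letters, not of a bound site.

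The 6 libraries held 7252597 to 10225448 reads on 3′ UTRs. Of these, 8.74% to 8.86% were T > C reads under DMSO and 6.34% to 6.71% under C646. Among the genes tested, T > C reads had a median log2 fold change (C646 over DMSO, scaled by all reads of a library) of −0.83, while that of all reads was −0.00. Of 11 myeloid leukaemia markers, 11 had a mean level of at least 10 CPM (counts scaled to the total of all reads of the library, adjusted by TMM), and their summed level was 3790 to 4070 CPM in DMSO and 3930 to 4280 CPM in C646. Most of that sum was LYZ, with means of 2800 and 3030 CPM, while SPI1, a myeloid transcription factor named after its values were seen, was called lower in all reads (199 and 94.9 CPM, log2 fold change −1.07, edgeR, adjusted p = 0.000835). FLT3 (122 and 187 CPM, 0.62, adjusted p = 0.00555) and PTPRC (18.0 and 34.1 CPM, 0.92, adjusted p = 0.00403), chosen in the same way, passed the adjusted p of edgeR upward but not the fold of the call, and CD33 (176 and 121 CPM, −0.55, adjusted p = 0.00821) did so downward. In T > C reads 6 of the 8 myeloid markers tested were called lower, beside 33.0% of all 7722 genes tested. Of 16 markers of other cells, NKG7 and PECAM1 reached that level and 7 were listed at 0, with a summed level of 225 to 266 CPM in DMSO and 133 to 209 CPM in C646. NKG7 and PECAM1 made up most of that sum, with means of 83.8 and 150 CPM in DMSO and 54.6 and 108 CPM in C646. COL1A1, named after its values were seen, went the other way from 1.5 to 6.27 CPM and was called higher in all reads (2.02, adjusted p = 0.00215) and in T > C reads (2.75, adjusted p = 0.000507), both with edgeR and the latter as 1 of 2 markers of other cells tested. All samples are of the same line, MOLM-13, and the levels of these markers were not tested as a sign of other cell types. In bulk RNA of a line, fewer expressing cells and less RNA per cell cannot be told apart.

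What the tables can say of the members is set first by where their reads were counted. Of the 8 members, 4 had reads (IRF1, HLA-C, HLA-B and B2M) and 4 were listed at 0 in every library and in every row (HLA-E, TAP1, TAP2 and TAPBP). IRF1 had 1 row, a 3′ UTR at chr5:132481609-132483950 (GRCh38, minus strand), whose last 100 bases occur once among the 58136 rows. HLA-C had 22223 reads in all, and 99.74% of them lay on a single alternative version of the MHC region of chromosome 6, in a row whose last 100 bases occur once. Its row on the primary chromosome, chr6:31268749-31269168, held 39 reads.

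HLA-B had 898 reads, none on the primary chromosome, and 79.06% of them lay on another alternative version of the same region. In rows whose last 100 bases occur more than once, HLA-B had 735 reads, or 81.9% of its own. B2M had 325 reads, all at chr15:44717607-44718159, a 3′ UTR whose last 100 bases recur on an alternative version of chromosome 15. HLA-E had 14 rows, TAP1 8, TAP2 19 and TAPBP 10, and every one of their rows of at least 100 bases shares its last 100 bases with a row elsewhere.

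Across the whole table, 92.8% of 6660 rows whose last 100 bases recur were listed at 0 in all libraries, against 51.7% of 37835 rows whose last 100 bases occur once. The part that these copies play in the counts of HLA-B, HLA-E, B2M, TAP1, TAP2 and TAPBP was not tested, and a value of 0 is given here only as listed.

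A gene was called when the adjusted p was at most 0.01 and the log2 fold change at least 1 in size. Adjusted p-values come from the quasi-likelihood test of edgeR, with the Benjamini-Hochberg method applied over all genes tested. In T > C reads, 2 of the 8 members had enough reads to be tested, IRF1 and HLA-C, and both were called lower, beside 33.0% of all 7722 genes tested. Both were also called lower in T > C odds (T > C reads against the gene's other reads), a comparison that does not depend on scaling between libraries, beside 38.3% of the same genes. In all reads, 4 members were tested and IRF1 was called lower, beside 1.88% of 10851 genes. No member was called higher in any of these edgeR comparisons, none was higher at an unadjusted p under 0.05, and DESeq2 called none higher in T > C reads or in all reads. With a replicate block, an alternative fit, edgeR called B2M higher in all reads (log2 fold change 1.29, adjusted p = 0.00498). The share of all genes called higher was 2.97% in T > C reads, 5.89% in all reads and 0.790% in T > C odds.

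IRF1, the transcription factor that relays interferon signals to class I genes, had the largest fall among the members tested. These were 2 in T > C reads and 4 in all reads. Newly synthesized IRF1 transcripts were 181, 123 and 146 T > C reads under DMSO and 18, 16 and 13 under C646. No C646 library came near the lowest DMSO library. As CPM of all reads of the library, the T > C level was 18.6 ± 1.37 in DMSO and 1.88 ± 0.550 in C646 (SD, n = 3 each), or 0.101 of the control. This is a log2 fold change of −3.33 with a standard error of 0.282 (edgeR, adjusted p = 8.72e-11), and 100 of the 7722 genes tested had a lower value. Set against the median of all genes tested, IRF1 lay at −2.50 on the log2 scale.

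All IRF1 reads, new and old together, were 282, 202 and 260 in DMSO and 78, 102 and 53 in C646. The groups again did not overlap, with 30.9 ± 3.65 CPM in DMSO and 9.36 ± 3.72 CPM in C646 (SD, n = 3 each). With a log2 fold change of −1.74 (standard error 0.260, edgeR, adjusted p = 0.000315), IRF1 ranked 33 from the lowest of the 10851 genes tested in all reads.

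Reads of IRF1 without a conversion, which include transcripts made before the label was added, were at 12.3 ± 2.63 CPM in DMSO and 7.48 ± 3.31 CPM in C646 (SD, n = 3 each). The highest C646 library, at 10.5 CPM, was just under the lowest DMSO library, at 10.6 CPM. Thus the mean difference of all IRF1 reads, −21.6 CPM, was made up of −16.7 CPM in T > C reads and −4.84 CPM in the other reads.

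T > C reads were 64.2%, 60.9% and 56.2% of IRF1 reads in the DMSO libraries, with 95% Wilson intervals from 50.1% at the lowest to 69.6% at the highest. In the C646 libraries they were 23.1%, 15.7% and 24.5%, with intervals from 9.89% to 37.6%, so that no interval of one group reached those of the other. These intervals cover counting error only, since the reads carry no molecular identifiers here. IRF1 was among the genes with the largest share of new RNA: 204 of 7717 genes had a higher mean share in DMSO, and the median gene was at 13.3% in DMSO and 7.37% in C646. The log2 change of the T > C odds was −2.55 with a standard error of 0.416 (edgeR, adjusted p = 2.27e-05). Conversions per T covered went the same way, from 4.54% ± 0.894 to 1.71% ± 0.581 (SD, n = 3 each).

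The 3 genes whose T > C levels over the 6 libraries were nearest to those of IRF1 were ITGAL (an integrin chain of leukocytes), REEP4 and SMIM3. Their distances were 0.0614, 0.375 and 0.394 on the log2 scale, among the 2843 genes with a mean of at least 50 T > C reads. Their log2 fold changes of T > C reads were −3.13, −3.22 and −3.08, and values near that of IRF1 follow from how these genes were picked. B2M had too few T > C reads for such a comparison.

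**Figure D1:**
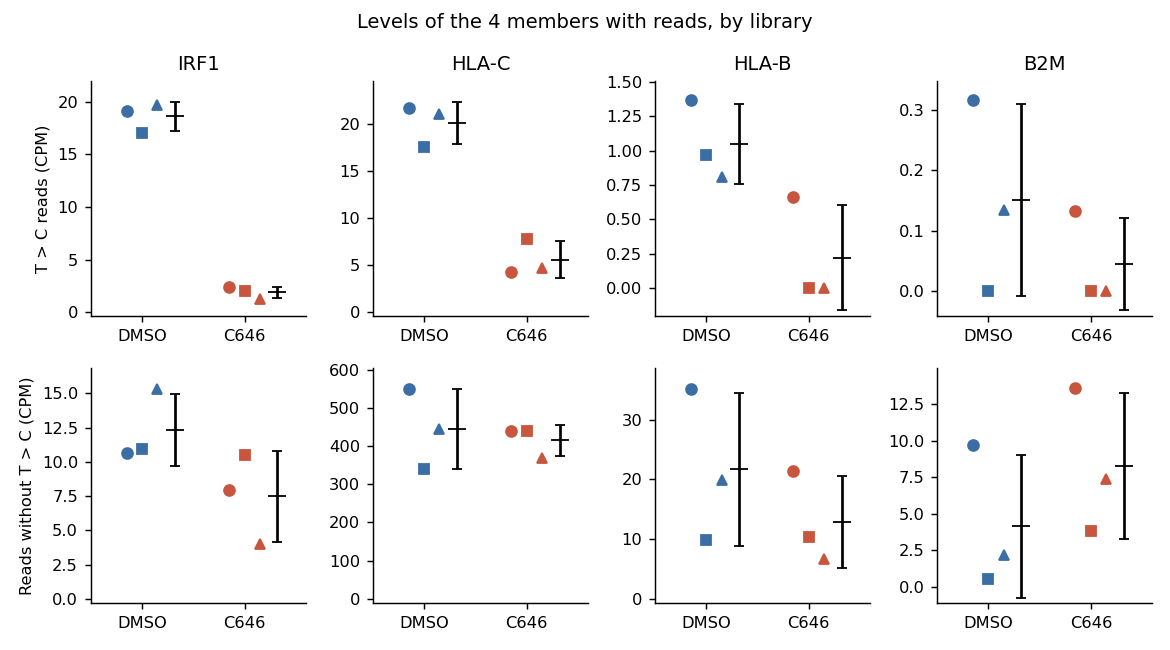
CPM of T > C reads (upper row) and of reads without a conversion (lower row) for the 4 members with reads, by library (circle, square and triangle for replicates 1, 2 and 3; DMSO in blue, C646 in red), with the group mean and SD in black; each panel has its own scale. In IRF1 and HLA-C the C646 libraries lie far under the DMSO libraries in T > C reads, while the reads of HLA-C without a conversion overlap, at 445 ± 105 CPM in DMSO and 416 ± 41.0 CPM in C646 (SD, n = 3 each).

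HLA-C, a class I heavy chain read by T cells and by killer-cell receptors, fell in new RNA with no detectable change in the amount of its mRNA. Its T > C reads were 206, 127 and 157 in DMSO and 32, 64 and 47 in C646. Every C646 library lay under every DMSO library, at 5.58 ± 1.97 CPM against 20.2 ± 2.22 CPM (SD, n = 3 each). The fall was −1.85 on the log2 scale with a standard error of 0.246 (edgeR, adjusted p = 3.62e-07). HLA-C lay at −1.03 from the median of all genes tested and ranked 1142 from the lowest of 7722. With T > C reads scaled by their own total, the fall was −1.01 (TMM, edgeR, adjusted p = 0.00207) and remained called.

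All HLA-C reads were 5431, 2579 and 3455 in DMSO and 3354, 3646 and 3758 in C646. The C646 libraries lay within the range of the DMSO libraries, and the log2 fold change of −0.14 (standard error 0.163) was not significant (edgeR, adjusted p = 0.529). Without DMSO replicate 1 it was 0.03.

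T > C reads were 3.79%, 4.92% and 4.54% of HLA-C reads in DMSO and 0.954%, 1.76% and 1.25% in C646. The lowest DMSO interval began at 3.32% and the highest C646 interval ended at 2.24% (95% Wilson). The log2 change of the T > C odds was −1.77 with a standard error of 0.197 (edgeR, adjusted p = 1.35e-07). In contrast to IRF1, HLA-C had a small share of new RNA in the control: 7144 of 7717 genes had a higher one.

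The HLA-C result rests on rows of 1 alternative version of the MHC region, since with primary chromosomes alone HLA-C had too few reads to be tested. On that row alone T > C reads had a log2 fold change of −1.93 (edgeR, adjusted p = 3.68e-07). The row on the primary chromosome held 0 of 11, 1 of 1 and 2 of 2 T > C reads in DMSO and 0 of 13, 3 of 3 and 9 of 9 in C646. Near-identical class I genes can exchange reads, so the values of HLA-B and HLA-C are uncertain to that extent.

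HLA-B, a heavy chain usually strongly raised by interferon, was counted at a low level. Its reads were 347, 78 and 154 in DMSO and 167, 85 and 67 in C646. The groups overlapped, and DMSO replicate 1 stood far above the other libraries. The log2 fold change of all reads was −0.83 (standard error 0.41, edgeR, adjusted p = 0.138). It was −1.42 (adjusted p = 0.0143) without C646 replicate 1 and −0.29 (adjusted p = 0.648) without DMSO replicate 1, both with edgeR.

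T > C reads of HLA-B were 13, 7 and 6 in DMSO and 5, 0 and 0 in C646, too few to be tested. The C646 values in CPM all lay under the DMSO values, as they did for IRF1 and HLA-C and for 55.8% of all genes tested. In C646 replicates 2 and 3, 0 of 85 and 0 of 67 HLA-B reads were T > C reads, and the 95% Wilson intervals allow up to 4.32% and 5.42%.

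B2M, the light chain shared by all class I molecules, had 95, 4 and 17 reads in DMSO and 104, 31 and 74 in C646. The 3 DMSO libraries alone spanned 0.555 to 10.0 CPM, and the groups overlapped. The log2 fold change of all reads was 0.89 (standard error 0.629, edgeR, adjusted p = 0.302). It was 2.52 (edgeR, adjusted p = 0.0151) without DMSO replicate 1, 0.39 (adjusted p = 0.659) without DMSO replicate 2 and 0.35 (adjusted p = 0.728) without C646 replicate 1. With a replicate block it was 1.29 (edgeR, adjusted p = 0.00498) and B2M was called higher, though whether equal replicate numbers mark pairs is not known. T > C reads of B2M were 3, 0 and 1 in DMSO and 1, 0 and 0 in C646, and no change in new RNA was detectable at this depth.

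**Figure D2:**
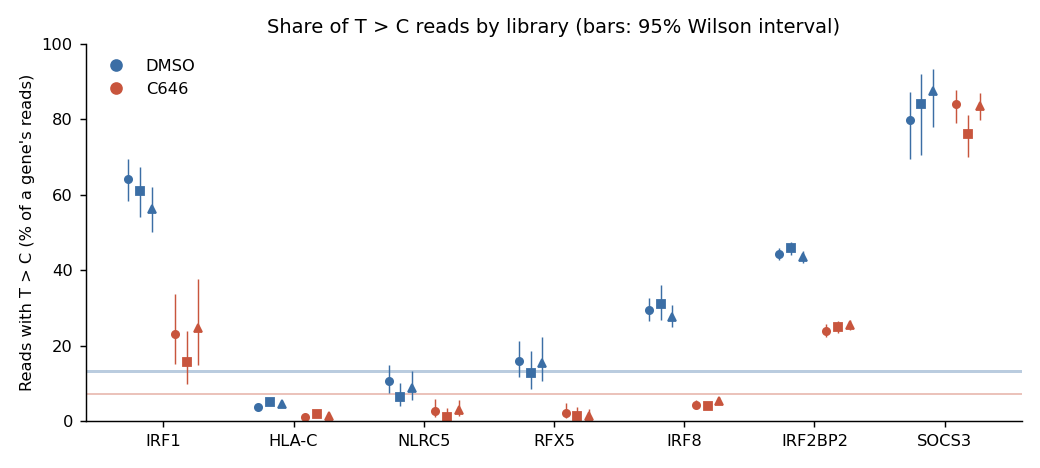
T > C reads as a percentage of a gene's reads in each library, with 95% Wilson intervals, for IRF1, HLA-C and other genes of the pathway (circle, square and triangle for replicates 1, 2 and 3); the blue and red bands span the medians over all genes tested in the DMSO and C646 libraries. IRF1 goes from 60.4% ± 4.04 to 21.1% ± 4.74 (SD, n = 3 each), while SOCS3 is at 83.8% ± 3.89 in DMSO and 81.2% ± 4.43 in C646 (SD, n = 3 each).

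Around the members, 105 other genes of the pathway were grouped in 8 lists. Of these, 10 were listed at 0 in every library, and for 5 of the 10 every row of at least 100 bases shares its last 100 bases with another row. In T > C reads 45 were tested, and 15 of them, or 33.3%, were called lower, close to the 33.0% of all genes. SOCS3 and BST2, or 4.44%, were called higher, beside 2.97% of all genes. In T > C odds 17 of the 45, or 37.8%, were called lower, beside 38.3% of all genes. In all reads 77 were tested and 5, or 6.49%, were called higher, beside 5.89% of all genes. None of the 77 was called lower in all reads by edgeR, beside 1.88% of all genes, and none by DESeq2. With edgeR, 15 were lower at an unadjusted p under 0.05. Where T > C reads were scaled by their own total (TMM), the median of all genes tested moved from −0.83 to 0.01 and 2 of the 15, CD74 and TYK2, were still called lower.

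Of the genes closest to the members in function, those that could be tested in T > C reads did not pass the call. The lists of other class I and class I-like molecules, of the peptide loading complex with its trimming enzymes, and of the immunoproteasome held 21 genes, of which 8 were tested in T > C reads. None was called in either direction by edgeR or DESeq2. Of all 7722 genes tested, edgeR called 33.0% lower and 2.97% higher. Of the 8, 4 were lower at an unadjusted p under 0.05 with edgeR. Whether so few genes differ from the share of all genes was not tested. The median log2 fold changes of the 3 lists were −0.68, −0.75 and −0.49, against −0.83 for all genes. CALR, the chaperone calreticulin of the loading complex, had T > C levels of 63.5 ± 8.85 CPM in DMSO and 63.4 ± 7.67 CPM in C646 (SD, n = 3 each). In T > C reads its log2 fold change was −0.00 (edgeR, adjusted p = 0.996), and it was 0.84 when these were scaled by their own total. All CALR reads were at 1303 ± 254 CPM in DMSO and 2136 ± 216 CPM in C646 (SD, n = 3 each) with no overlap, and the log2 fold change of 0.71 passed the adjusted p but not the fold of the call (edgeR, adjusted p = 0.00339). T > C odds of CALR likewise passed the adjusted p but not the fold, at −0.75 (edgeR, adjusted p = 2.76e-06), with a T > C share of 4.91% ± 0.330 in DMSO and 2.96% ± 0.0855 in C646 (SD, n = 3 each). CALR was named after its values were seen.

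Of the transactivators of class I and class II genes, 8 of 9 were tested in T > C reads. RFX5, NLRC5, RFXAP and CREB1 were called lower, 4 of the 8, beside 33.0% of all genes tested. RFX5 and RFXAP are subunits of the RFX complex that binds the X box, NLRC5 is the class I transactivator, and CREB1 binds the X2 site. CREB1 met the read minimum for naming, with a log2 fold change of −1.07 (edgeR, adjusted p = 0.00176), or −0.95 (not called, adjusted p = 0.0158) without DMSO replicate 2, and the other 3 were named after their values were seen.

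NLRC5 had 29, 15 and 18 T > C reads in DMSO and 5, 2 and 8 in C646. The fall was −2.11 on the log2 scale with a standard error of 0.580 (edgeR, adjusted p = 0.00299), on few reads. The call was lost without C646 replicate 2 (−1.77, adjusted p = 0.0209), DMSO replicate 1 (−1.94, 0.0321), DMSO replicate 2 (−2.23, 0.011) or DMSO replicate 3 (−2.14, 0.015), all with edgeR. All NLRC5 reads were at 30.1 ± 2.80 CPM in DMSO and 26.8 ± 1.25 CPM in C646 (SD, n = 3 each), a log2 fold change of −0.17 (edgeR, adjusted p = 0.459). For RFX5 the T > C reads were 36, 21 and 22 in DMSO and 5, 4 and 5 in C646. In T > C reads its log2 fold change was −2.54 (standard error 0.545, edgeR, adjusted p = 0.00029). All RFX5 reads, in contrast, were at 21.9 ± 2.49 CPM in DMSO and 34.3 ± 1.48 CPM in C646 (SD, n = 3 each), with no overlap and a log2 fold change of 0.65 (edgeR, adjusted p = 0.00936). The calls of CREB1, NLRC5, RFX5 and RFXAP in T > C reads were lost when T > C reads were scaled by their own total.

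Among the relatives of IRF1, 5 of 11 genes of the IRF family and its corepressors were tested in T > C reads. IRF8, IRF2BP2 and IRF2BPL were called lower, 3 of the 5, beside 33.0% of all genes tested. IRF2BPL, named after its values were seen, had a log2 fold change of −1.32 (edgeR, adjusted p = 0.00134), and the call was lost without DMSO replicate 3, at −1.21 (adjusted p = 0.0135). IRF8, a factor of the myeloid lineage that partners with IRF1, had 258, 117 and 251 T > C reads in DMSO and 70, 71 and 143 in C646. Its T > C level was 25.7 ± 8.88 CPM in DMSO and 10.7 ± 3.02 CPM in C646 (SD, n = 3 each), and the log2 fold change was −1.25 (edgeR, adjusted p = 7.77e-05). Unlike IRF1, all reads of IRF8 rose, from 89.0 ± 35.2 CPM to 233 ± 29.2 CPM (SD, n = 3 each), with log2 fold change 1.39 (standard error 0.227, edgeR, adjusted p = 0.000591). The share of T > C reads of IRF8 was 29.4% ± 1.74 in DMSO and 4.54% ± 0.697 in C646 (SD, n = 3 each).

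Lower T > C reads with higher reads in all was rare in these data. Of 2931 genes that passed the adjusted p with fewer T > C reads, 28 passed it with more reads in all, and RFX5 and IRF8 were among these, a pair picked out after their values were seen. RFX5 passed in all reads by little: with any 1 of the 6 libraries left out its adjusted p was 0.0136 to 0.0404, and it was 0.0107 with plain totals as the scaling (edgeR). IRF8 passed with each library left out. In the other direction, 568 of the 2931 passed with fewer reads in all. Under scaling by the T > C total, the T > C log2 fold change of IRF8 was −0.42 (edgeR, adjusted p = 0.178).

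IRF2BP2, a corepressor partner of IRF2, had T > C levels of 194 ± 11.1 CPM in DMSO and 91.4 ± 8.45 CPM in C646 (SD, n = 3 each), a log2 fold change of −1.09 (edgeR, adjusted p = 1.47e-07). With T > C reads scaled by their own total (TMM), the calls of IRF2BP2 and IRF2BPL were lost, at −0.24 and −0.47. IRF2, the factor that competes with IRF1 for its sites, was too low in T > C reads to be tested. All reads of IRF2, named after its values were seen, were 24, 19 and 37 in DMSO and 72, 87 and 128 in C646. The groups did not overlap, and the log2 fold change was 1.71 (standard error 0.312, edgeR, adjusted p = 0.00118).

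**Figure D3:**
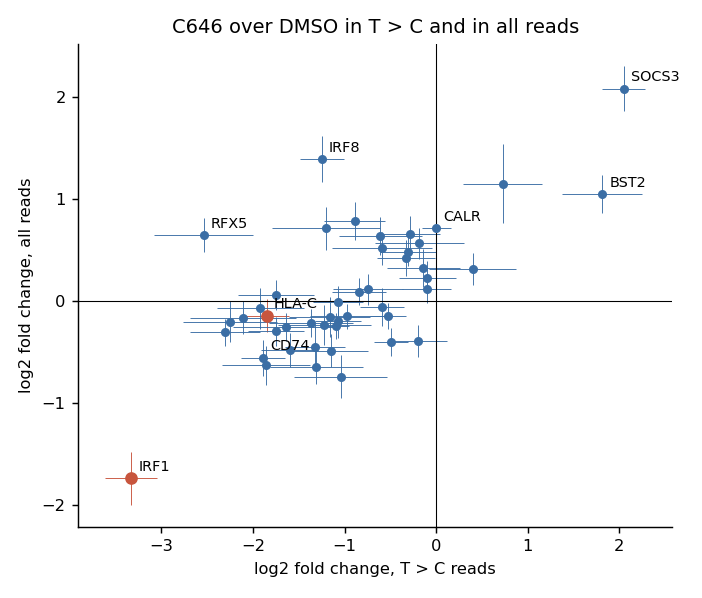
log2 fold changes (C646 over DMSO) of T > C reads (horizontal) and of all reads (vertical) for the tested members (red) and pathway genes (blue), with standard errors. IRF1 lies lowest on both axes at −3.33 and −1.74, HLA-C is low only in T > C reads at −1.85, and IRF8 and RFX5 lie left of 0 and above 0.

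Of the interferon receptors and their JAK-STAT pathway, 11 of 13 genes were tested in T > C reads. Of all genes tested there, 33.0% were called lower and 2.97% higher. TYK2 and IFNAR2, the kinase and a chain of the type I interferon receptor, and PTPN2, a phosphatase of the pathway, were called lower, and these 3 were named after their values were seen. Their log2 fold changes were −2.31, −2.25 and −1.75 (edgeR, adjusted p = 1.11e-05, 0.000569 and 0.000865), and IFNAR2 was at −3.40 without C646 replicate 1, which held 17 of its T > C reads against 5 and 3 in the other C646 libraries. PTPN2 was at −2.36 without C646 replicate 1, and its call was lost without DMSO replicate 3, at −1.54 (adjusted p = 0.0131). The calls of IFNAR2 and PTPN2, but not that of TYK2, were lost when T > C reads were scaled by their own total.

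SOCS3, a feedback inhibitor of the JAKs, rose in the same pathway. Its T > C reads were 63, 37 and 63 in DMSO and 220, 169 and 342 in C646, with no overlap. The rise was 2.05 on the log2 scale with a standard error of 0.234 (edgeR, adjusted p = 2.77e-08), and that of all reads was 2.08 (standard error 0.223, edgeR, adjusted p = 2.26e-05). Like IRF1, SOCS3 had most of its reads in new RNA in the control.

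Of 40 interferon-stimulated genes, 10 were tested in T > C reads, with 4 called lower (DTX3L, IFITM2, PML and XAF1) and 1 called higher (BST2). The shares of all genes tested were 33.0% lower and 2.97% higher. DTX3L, a ubiquitin ligase, and IFITM2, a membrane protein against virus entry, had log2 fold changes of −1.75 and −1.60 (edgeR, adjusted p = 2.68e-05 and 8.65e-05). Those of PML and XAF1, named after their values were seen, were −1.86 and −1.07. The call of PML was lost without C646 replicate 2 (−1.54), DMSO replicate 1 (−1.73) or DMSO replicate 3 (−1.80), and PML was at −2.83 without C646 replicate 3. The call of XAF1 was lost without C646 replicate 2 (−0.94) or DMSO replicate 2 (−0.99). When T > C reads were scaled by their own total, the calls of DTX3L, IFITM2, PML and XAF1 were all lost. BST2, or tetherin, which holds virus particles at the cell surface, had 15, 6 and 11 T > C reads in DMSO and 30, 33 and 59 in C646, and rose by 1.81 on the log2 scale (standard error 0.437, edgeR, adjusted p = 0.000954). BST2 was also called higher in all reads, at 1.05 (edgeR, adjusted p = 0.000949), as was TRIM22, at 1.97 (edgeR, adjusted p = 0.000128), both named after their values were seen. The call of BST2 in all reads was lost without C646 replicate 3, at 0.77.

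Class II presentation had 3 of 11 genes tested in T > C reads, and CD74, the invariant chain, was called lower, beside 33.0% of all genes tested. Its T > C reads were 178, 185 and 150 in DMSO and 48, 59 and 40 in C646, with a log2 fold change of −1.89 (standard error 0.243, edgeR, adjusted p = 2.19e-07). All reads of CD74 were at 906 ± 142 CPM in DMSO and 616 ± 153 CPM in C646 (SD, n = 3 each), and their log2 fold change of −0.56 was not called (edgeR, adjusted p = 0.0274).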

How the data were processed

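Per the labels and the methods of the study, the authors made 3′ end libraries (QuantSeq) from alkylated RNA of MOLM-13 cells, used CASAVA 1.9, aligned to GRCh38 and ran SLAM-Dunk v0.4.1 with default settings. The deposited tables hold, for 58136 3′ UTRs of 25420 genes in 6 libraries, raw, unscaled counts of reads, T > C reads, conversions and multimapped reads, and a signal, the coverage of T positions. A deposited T > C read can hold a single conversion, and no unlabelled library was used here, so the background of false conversions is not known.

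Rows were summed per Entrez identifier, and symbols came from RefSeq (25310 genes matched). The members, lists and tests were chosen with earlier results of these data known. T > C reads were tested with edgeR 4.0.16 (R 4.3.3; glmQLFit, glmQLFTest; genes kept by filterByExpr), with the TMM-scaled total of all reads as library size. All reads were tested with TMM. T > C odds were tested on T > C and other reads with a factor for each library. p-values were Benjamini-Hochberg adjusted over all genes tested, and standard errors are the fold change over the root of F. DESeq2 1.42.0, other scalings and filters, single rows, primary chromosomes alone, a replicate block and leaving out each library were alternatives. Each fit was tested on simulated data. Wilson intervals used scipy 1.17.1. Beside the members, the 2 genes of each list that fell most and the 2 that rose most in T > C reads were named, if past an adjusted p of 0.01 and with a mean of at least 50 T > C reads, as were the 3 genes nearest to IRF1 (distance of centred log2(CPM + 0.5)). Other genes are said to be named after their values were seen. Motifs were searched in RefSeq promoters on both strands. Some genes of the pathway are not reported here and were left out of the lists.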

Additional observations from a re-analysis of the deposited data

How the results depend on the processing

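IRF1 was called lower under every alternative run, with log2 fold changes of −3.52 to −2.48 in T > C reads, −2.01 to −1.44 in all reads and −2.69 to −2.29 in T > C odds. HLA-C was called lower wherever it was tested, at −2.17 to −1.01 in T > C reads and −2.02 to −1.58 in T > C odds. With primary chromosomes alone it was not tested, and 1 member was called lower in T > C reads and in T > C odds. In all reads HLA-C ranged from −0.30 to 0.034 with 1 library left out. The sources do not say whether equal replicate numbers mark pairs. The correlation of deviations across genes between equal numbers was 0.03 to 0.065 in T > C reads and −0.0014 to 0.23 in all reads. In T > C reads 3 of 3 DMSO libraries correlated best with their own number, and in all reads 1 of 3. Pairing was thus neither shown nor excluded. With the replicate block, B2M was called higher in all reads (log2 fold change 1.29, adjusted p = 0.00498), so that 1 member was called higher there, and HLA-B had −0.81 (adjusted p = 0.00534); the block changed the call of no other member.

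Genes called in T > C reads were 2548 lower and 229 higher. Scaled by TMM on T > C reads they were 602 and 706, by DESeq2 with size factors from T > C reads 565 and 660, with at least 50 T > C reads 1038 and 125, and at an adjusted p of 0.05 with any fold 3870 and 405. In all reads, 204 were lower and 639 higher, and at an adjusted p of 0.05 with any fold 1587 and 1824. Leaving out 1 library gave 120 (without DMSO replicate 2) to 321 (without C646 replicate 1) lower. In T > C odds, 2958 were lower and 61 higher, and 4690 and 130 at an adjusted p of 0.05 with any fold. With at least 50 T > C reads 1189 were lower. The cause of these differences beyond fewer genes tested was not tested.

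CALR in T > C reads was 0.81 by DESeq2 with size factors from T > C reads and 0.84 with TMM on T > C reads. It was 0.0057 on primary chromosomes alone, 0.0028 on the single row with the most reads, and −0.085 to 0.12 with 1 library left out (0.10 without C646 replicate 1, 0.12 without DMSO replicate 3). HLA-B and B2M had 31 and 5 T > C reads in all, too few to be tested.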
